A study of Mus musculus with 6 samples.

Results

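The genes described here carry glucose into the cell, break it down to pyruvate, and make, export or oxidise the resulting lactate and pyruvate, together with a few regulators and markers of the response to low oxygen. They were chosen by name as 33 mouse gene symbols, and 32 of them had a named row among the 20263 genes of the array table. Gapdh, which encodes glyceraldehyde phosphate dehydrogenase, had no row. Each gene was represented by its transcript row with the highest mean over all 6 arrays, out of 32025 rows.

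The cells were neural stem cells from CD-1 albino mouse embryos of stage E14.5, grown as neurospheres, which are floating clusters of proliferating progenitors. One group received a miR-128 mimic and the other a control RNA called miR-Control, both by nucleofection, and RNA was collected 72 h later. Each group had 3 replicates, described as biological, and each RNA was hybridised to 1 exon array. Cells that received no RNA were not analysed here, so both groups share the nucleofection itself. The series design text states that such cells do not normally express miR-128, so the mimic adds a microRNA from outside. No source used here tells which cultures or embryos the replicates came from.

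Glycolysis splits glucose in the cytosol, first spending energy to phosphorylate the sugar and then recovering more energy in its later, payoff steps. Proliferating progenitors are known for a high rate of this pathway, with much of the pyruvate turned into lactate by lactate dehydrogenase and exported, while differentiated neural cells oxidise more of it in mitochondria. Many of the steps have several isozymes, encoded by separate genes that differ in tissue and regulation. The transcription factor of the low-oxygen response, with its alpha subunit encoded by Hif1a, is a known activator of many of these genes.

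The microRNA itself is shown because its addition is the only labelled difference between the groups. The labels do not say which arm or sequence the mimic had. The RefSeq entry for the 3′ arm of mouse miR-128, from build GRCm38.p6, is identical for both genomic copies, at chr1:128202404-128202424 on the plus strand and chr9:112118644-112118664 on the minus strand. Capitals mark the seed, bases 2 to 8 from the 5′ end.
mmu-miR-128-3p: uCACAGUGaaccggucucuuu

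The deposited values are log2 expression values per transcript row, so a difference of 1 is a doubling. A level depends on the probes of its row as well as on the RNA, and levels of different genes are therefore not ranked against each other. Most of these rows were bright: 23 of 32 had a mean above the 90th percentile of all rows. The lowest, for Pfkfb4, stood at percentile 41.4, and Pgk1, Eno2 and Pfkp stood at 53.6, 55.2 and 55.9. One control array, replicate 3, differed most from the rest. On the first principal component, with 35.4% of the variance, it lay at 42.5, and the others lay between -18.7 and -0.226. Arrays also differed in spread, with interquartile ranges of 3.17 and 3.22 in miR-Control replicates 1 and 2, 2.87 in replicate 3, and 2.98 to 3.05 with miR-128. Among markers checked for cell identity, the 10 neural stem cell and radial glia genes had a mean log2 level of 10.37 to 10.49 on every control array and 10.37 to 10.49 on every miR-128 array. Array means of the markers of other cells were 6.31 to 6.48 for microglia (6 genes), 7.03 to 7.20 for vascular and mesenchymal cells (7 genes) and 4.26 to 4.51 for red cells (2 genes). Because levels depend on the probes and no zero exists on this scale, they do not show whether those cells were absent.

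With miR-128 most genes of the set were lower, led by the glucose transporter Slc2a1 and the hexokinase Hk2, but no gene passed the test. The regulators and markers of low oxygen did not share this lean. Of 32 genes 23 had a lower mean (71.9%) and 9 a higher one, with a median log2 difference of -0.13. Over all rows 43.2% were lower, with a median of 0.02, and among rows above the median level 47.9% were lower, with a median of 0.01. In limma none of the 32 genes reached an adjusted p of 0.05, and neither did any of the 32025 rows, a background share of 0%. With an unadjusted p below 0.05, 5 of the genes were lower (15.6%), where 3.11% of all rows were called on that side. On the higher side there were 0 of the genes, where 4.04% of all rows were called. Among rows above the median level, which held 31 of the 32 genes, the shares were 4.78% lower and 3.95% higher.

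In 8 genes the highest miR-128 array was under the lowest control (25%). These were Slc2a1, Hk2, Aldoc, Eno1, Eno2, Ldha, Pdk1 and Pfkfb3, and among all rows 4.87% were apart on that side. No gene of the set was apart on the higher side, where 6.98% of all rows were. Of the 16012 rows above the median level, 1176 were apart on the lower side and 1005 on the higher. All these genes were read on the same 6 arrays, so their counts are not independent of each other. The mean over the 32 genes, relative to each gene's control mean, was 0.04, 0.06 and -0.10 on control arrays 1 to 3, against -0.08, -0.10 and -0.15 on miR-128 arrays 1 to 3. On this mean miR-Control replicate 3 therefore lay among the miR-128 arrays. Without it 28 of the 32 genes were lower, with a median of -0.17, and 6 were lower at an unadjusted p under 0.05, with Pgk1 higher. Over all rows in that fit 39.0% were lower, with a median of 0.05. The shares of all rows at that p level also grew, to 5.84% lower and 6.59% higher. Without miR-Control replicate 1, miR-Control replicate 2 or miR-128 replicate 1 in turn, 3 of the genes were lower at that level each time. The shares of all rows lower at that level were 3.31%, 2.5% and 1.65% in these fits. Leaving out miR-128 replicate 2 gave 5 of the genes (3.08% of all rows), and leaving out miR-128 replicate 3 gave 2 (2.46%).

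**Figure D1:**
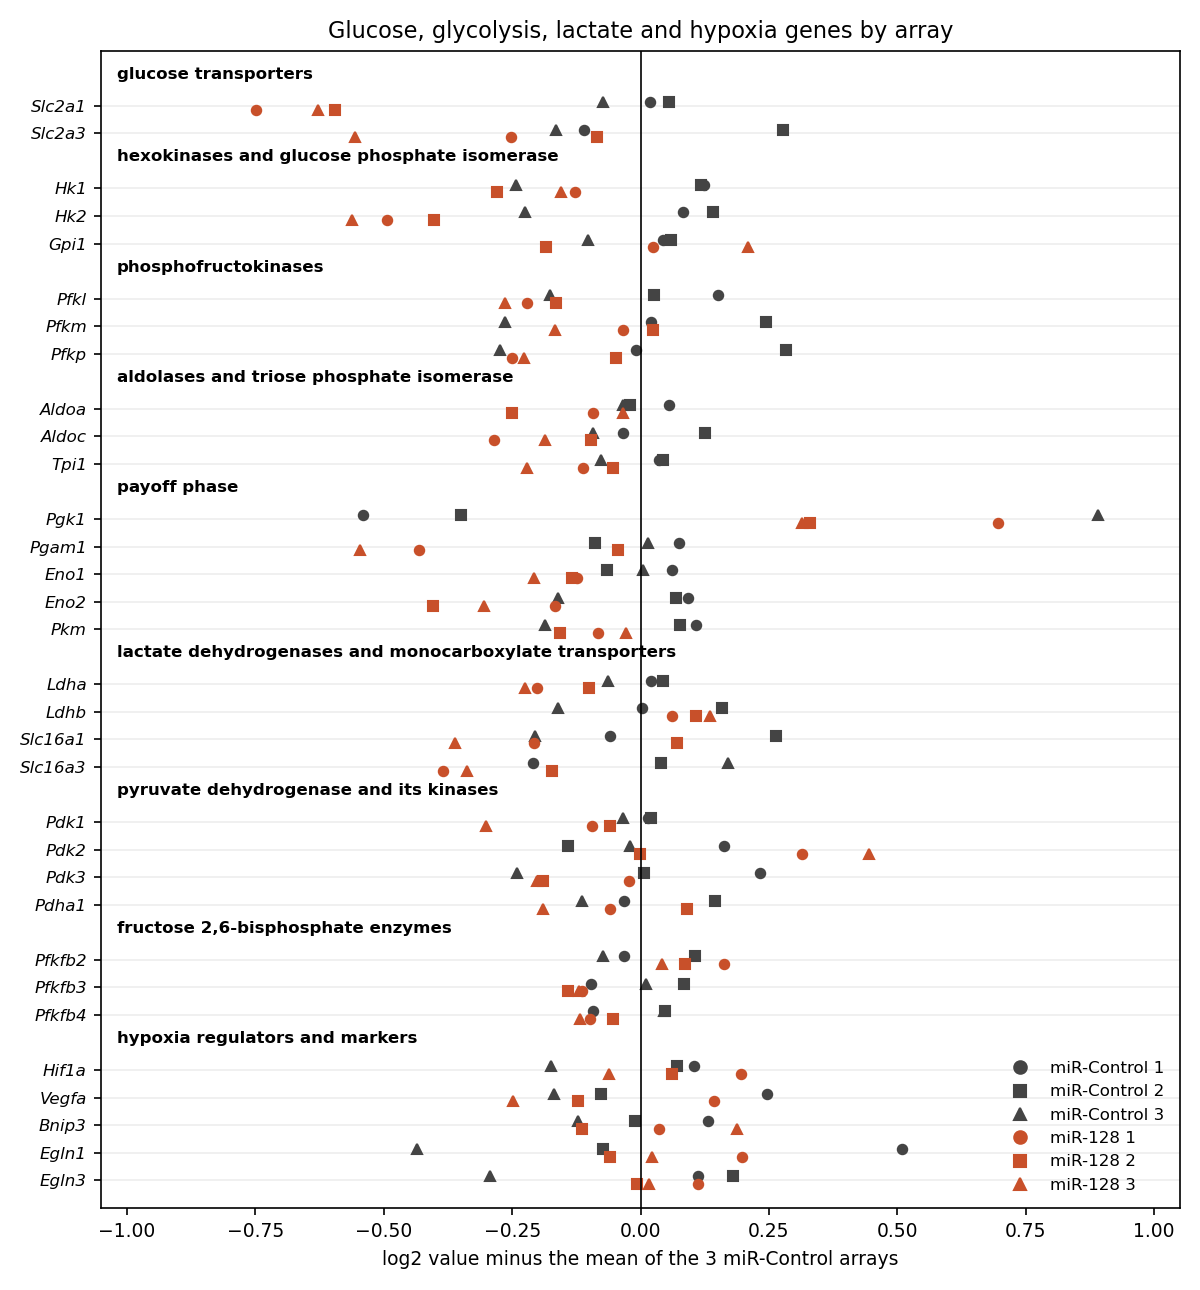
Each row is a gene, and each symbol is an array, plotted as its log2 value minus the mean of the 3 miR-Control arrays (dark grey symbols, controls; orange symbols, miR-128; shape gives the replicate number). The orange symbols of Slc2a1 and Hk2 all lie to the left of the grey ones, those of the hypoxia genes mix with them, and Pgk1 has the widest spread.

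Glucose enters neural cells through facilitative transporters. Slc2a1 encodes GLUT1, the widely expressed transporter of dividing cells and of the blood-brain barrier. Its log2 values were 11.87, 11.90 and 11.77 on control arrays 1 to 3, against 11.10, 11.25 and 11.22 on miR-128 arrays 1 to 3. The 2 groups were far apart relative to their spread, and the highest miR-128 array stayed below the lowest control. The means were 11.85 ± 0.07 and 11.19 ± 0.08 (SD, n = 3), a log2 difference of -0.66 (SE 0.10, 95% interval -0.89 to -0.43), or a 1.58-fold lower level. By p-value its row ranked 17 of 32025, with an adjusted p of 0.201 in limma.

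The Slc2a1 call depended on how arrays were weighted. With limma's array weights, which gave miR-Control replicate 3 the lowest weight of 0.279, the adjusted p was 0.0453. It was 0.0531 when only rows above the median level were tested, and over 14 alternatives it ran from 0.0453 to 0.827, with differences of -0.70 to -0.61. Unlike the mean of the whole set, the value of miR-Control replicate 3 for this gene lay with the other controls.

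Slc2a3 encodes GLUT3, the high-affinity transporter best known from neurons. Its values were 11.48, 11.87 and 11.43 in the control arrays against 11.34, 11.51 and 11.04 under miR-128. The groups overlapped, since miR-128 replicate 2 lay above 2 of the controls. The log2 difference was -0.30 (95% interval -0.67 to 0.07, adjusted p = 0.781 in limma).

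Hexokinases trap glucose in the cell by phosphorylating it. Hk2, the inducible isozyme of growing cells and tumours, had values of 11.15, 11.21 and 10.84 in the control arrays against 10.57, 10.66 and 10.51 under miR-128. All miR-128 arrays lay below the controls, and miR-Control replicate 3 was the closest of the controls to them. The means were 11.07 ± 0.20 and 10.58 ± 0.08 (SD, n = 3), a log2 difference of -0.49 (SE 0.12, 95% interval -0.77 to -0.20), or a 1.40-fold lower level. The adjusted p was 0.429 in limma, with a range of 0.0687 to 1.00 over the alternatives. The difference went to -0.60 without miR-Control replicate 3.

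Hk1, the constitutive isozyme of brain, had values of 10.84, 10.83 and 10.47 in the control arrays against 10.59, 10.43 and 10.56 under miR-128. Here miR-Control replicate 3 fell inside the miR-128 range, and the difference of -0.19 (95% interval -0.48 to 0.10) did not pass. Its 2 rows gave -0.19 and -0.14. The next enzyme, glucose phosphate isomerase (Gpi1), differed by 0.02 (95% interval -0.27 to 0.30), and its sign turned to -0.01 when arrays were centred on their medians.

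**Figure D2:**
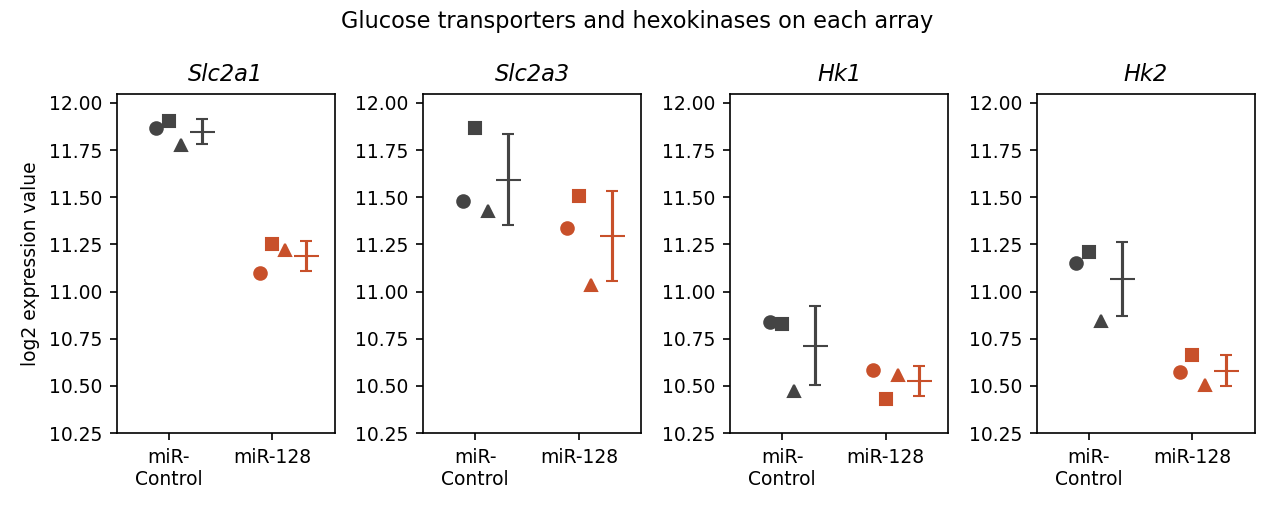
Log2 expression values of Slc2a1, Slc2a3, Hk1 and Hk2 on each array (circle, square and triangle are replicates 1, 2 and 3), with the mean and SD of 3 arrays beside them and the same vertical axis in every panel. The 2 groups are separate for Slc2a1 and Hk2 and overlap for Slc2a3 and Hk1.

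Stretches of promoter are printed for Slc2a1 and Hk2, the genes with the largest differences toward a lower level, and for Bnip3, a known target of the low-oxygen factor whose level differed little. Each holds the 250 bases before the annotated transcript start in RefSeq, build GRCm38.p6, written on the gene's own strand. They lie at chr4:119108495-119108744 (plus strand) for Slc2a1, chr6:82774455-82774704 (minus strand) for Hk2 and chr7:138909507-138909756 (minus strand) for Bnip3. Capitals mark the letters ACGTG on either strand (read as CACGT where the match is on the other strand), a common core of the element that the low-oxygen factor binds.
Slc2a1: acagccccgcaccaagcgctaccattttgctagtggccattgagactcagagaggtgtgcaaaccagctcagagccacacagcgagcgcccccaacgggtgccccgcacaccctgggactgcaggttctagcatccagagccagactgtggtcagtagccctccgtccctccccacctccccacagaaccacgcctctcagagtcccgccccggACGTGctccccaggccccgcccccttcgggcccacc
Hk2: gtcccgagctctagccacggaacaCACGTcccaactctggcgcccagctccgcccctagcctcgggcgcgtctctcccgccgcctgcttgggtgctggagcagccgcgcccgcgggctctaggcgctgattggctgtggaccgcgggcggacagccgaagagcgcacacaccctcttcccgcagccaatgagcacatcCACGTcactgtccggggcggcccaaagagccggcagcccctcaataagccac
Bnip3: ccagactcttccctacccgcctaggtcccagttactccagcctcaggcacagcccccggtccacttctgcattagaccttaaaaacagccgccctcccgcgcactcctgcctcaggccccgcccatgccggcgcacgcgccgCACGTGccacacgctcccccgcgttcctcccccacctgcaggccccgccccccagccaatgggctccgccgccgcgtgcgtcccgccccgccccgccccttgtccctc

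The match in Slc2a1 begins 36 bases before the start, and those in Hk2 begin 226 and 52 bases before it. In Bnip3 the letters overlap on both strands, beginning 108 and 107 bases before the start, and form CACGTG, the E-box that other factors also bind. Promoter windows were found for 32 of the 33 symbols, all but Slc2a3, and counted 49 because some genes have several starts. Some windows of a gene overlap, so a site can be counted more than once, as in Aldoa. Over windows from 250 bases before to 50 after the start, ACGTG on either strand was present in 26 of 49 (53.1%), against 19.6% of all 32851 windows. The related letters GCGTG were present in 27 of 49 (55.1%), against 32.4%, and CACGTG, which contains ACGTG, in 8 of 49 (16.3%), against 7.15%. The windows of these genes were also richer in G and C, with a median of 62.0% against 52.7%, and the part of base composition in these shares was not tested.

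Among the genes with a row, the median log2 difference was -0.13 for the 21 with ACGTG in a window and -0.14 for the 10 without, and 14 and 8 of them were lower. The difference between these subsets was not tested. A match is a description of the letters and does not show binding.

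Phosphofructokinase commits the sugar to glycolysis. Pfkl, the liver-type subunit, had values of 11.57, 11.45 and 11.24 in the control arrays against 11.20, 11.26 and 11.16 under miR-128, a difference of -0.22 (95% interval -0.48 to 0.04). Only miR-Control replicate 3 reached into the miR-128 range. The platelet-type subunit Pfkp differed by -0.17 and the muscle-type subunit Pfkm by -0.06, both with overlapping groups. Neither passed.

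Aldolase splits the sugar into 2 triose phosphates, which triose phosphate isomerase (Tpi1) interconverts. Aldoc, the brain isozyme and a marker of astroglia, had values of 12.46, 12.62 and 12.40 in the control arrays against 12.20, 12.39 and 12.30 under miR-128. The groups did not overlap but nearly touched, and the difference of -0.19 had a 95% interval of -0.44 to 0.06. Aldoa, the widespread isozyme, differed by -0.13, with -0.14 to -0.09 over its 3 rows, and Tpi1 by -0.13.

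The payoff steps run from glyceraldehyde phosphate to pyruvate, and 4 of their 5 measured genes were lower. Pgam1, phosphoglycerate mutase, had 11.07, 10.91 and 11.01 in the control arrays against 10.57, 10.95 and 10.45 under miR-128. Replicate 2 of miR-128 lay among the controls, while the other 2 miR-128 arrays were clearly lower. The difference was -0.34 (95% interval -0.66 to -0.02, adjusted p = 0.677 in limma), and it was -0.49 without miR-128 replicate 2.

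Enolase makes phosphoenolpyruvate. Eno2, the neuron-enriched isozyme, had 8.05, 8.02 and 7.79 in the control arrays against 7.79, 7.55 and 7.65 under miR-128. The highest miR-128 array lay just under the lowest control, and the difference was -0.29 (95% interval -0.56 to -0.02, adjusted p = 0.660 in limma). Eno1, the widespread isozyme, had 13.03, 12.90 and 12.97 in the control arrays against 12.84, 12.83 and 12.76 under miR-128, a difference of -0.16 (95% interval -0.38 to 0.07). Both isozymes kept their groups apart, and neither passed.

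Pkm, pyruvate kinase, differed by -0.09 (95% interval -0.35 to 0.17). It had a single row, so its splice forms, of which the M2 form is typical of proliferating cells, could not be compared. Pgk1, phosphoglycerate kinase, went the other way and was the most variable of the set. It was also one of the dimmer rows, at percentile 53.6 of all rows. Its values were 6.94, 7.13 and 8.37 in the control arrays against 8.18, 7.81 and 7.79 under miR-128, with a difference of 0.45 (95% interval -0.30 to 1.19). The control SD of 0.78 came from miR-Control replicate 3, the highest of the 6 arrays, and without that array the difference was 0.89, with an adjusted p of 0.242 in limma. Over the alternatives the adjusted p of Pgk1 ran from 0.149 to 1.00.

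Several of these enzymes have near copies in the mouse genome that probes may not tell apart. The RefSeq names list pseudogenes for Aldoa (5), Gapdh (3), Ldha (3), Pgk1 (2) and Pgam1 (2), and Eno1b is a further gene related to Eno1. Only pseudogenes named after their gene were counted, so copies under other names are not included. For the genes with a row, the values are uncertain to an extent that was not measured.

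Lactate dehydrogenase joins pyruvate and lactate, with Ldha encoding the subunit of lactate-producing tissues and Ldhb that of lactate-using ones. Ldha had 13.31, 13.33 and 13.22 in the control arrays against 13.09, 13.19 and 13.06 under miR-128, a difference of -0.18 (95% interval -0.40 to 0.05). Ldhb had 10.29, 10.44 and 10.13 in the control arrays against 10.35, 10.40 and 10.42 under miR-128, a difference of 0.10 (95% interval -0.16 to 0.36). All Ldha values with miR-128 lay below the controls, while the Ldhb values lay inside the control range.

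Lactate crosses the membrane through monocarboxylate transporters. Slc16a3 encodes MCT4, the exporter of highly glycolytic cells, and had 8.52, 8.77 and 8.90 in the control arrays against 8.34, 8.55 and 8.39 under miR-128. The groups overlapped by a single pair of arrays, with miR-128 replicate 2 just above miR-Control replicate 1. The difference was -0.30 (95% interval -0.59 to -0.01, adjusted p = 0.685 in limma), and its 3 rows gave -0.30 to -0.22. Slc16a1, encoding the more widespread MCT1, differed by -0.17 (95% interval -0.52 to 0.19), and its groups overlapped widely.

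Pyruvate enters oxidation through the pyruvate dehydrogenase complex, and pyruvate dehydrogenase kinases switch that complex off. Pdk1, a kinase known as induced by low oxygen, had 10.81, 10.82 and 10.76 in the control arrays against 10.70, 10.73 and 10.49 under miR-128. The groups did not overlap, though the difference of -0.15 (95% interval -0.40 to 0.09) was -0.08 without miR-128 replicate 3. Pdk2 had 8.63, 8.33 and 8.45 in the control arrays against 8.78, 8.47 and 8.92 under miR-128, a difference of 0.25 (95% interval -0.07 to 0.58), with overlap. Pdk3 differed by -0.14 and Pdha1, the catalytic alpha subunit of the complex, by -0.05.

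The PFKFB enzymes make and remove the fructose bisphosphate that activates phosphofructokinase. Pfkfb3, the isoform with the highest kinase activity, had 9.33, 9.51 and 9.44 in the control arrays against 9.31, 9.28 and 9.30 under miR-128, a difference of -0.13 (95% interval -0.35 to 0.10). Its miR-128 arrays were close together just under the lowest control, and its 6 distinct rows gave -0.14 to -0.11. Pfkfb2 had 9.49, 9.62 and 9.45 in the control arrays against 9.68, 9.61 and 9.56 under miR-128, a difference of 0.10, with 0.09 to 0.14 over its 4 rows. The groups overlapped at the highest control. Pfkfb4, the dimmest row of the set, differed by -0.09.

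The regulators and markers of low oxygen showed no lean to the lower side, with 4 of 5 higher, 1 lower and a median of 0.04, though array weights put Bnip3, Egln1 and Egln3 on the lower side. Hif1a, encoding the oxygen-sensitive subunit of the factor, had 11.15, 11.12 and 10.87 in the control arrays against 11.24, 11.11 and 10.99 under miR-128, a difference of 0.07 (95% interval -0.21 to 0.34). Bnip3, a mitophagy receptor, differed by 0.04 and Vegfa, the vascular growth factor, by -0.08, with -0.11 to -0.04 over 6 rows. The prolyl hydroxylases that mark the factor for degradation differed by 0.05 for Egln1 and 0.04 for Egln3. In these 5 genes the groups overlapped.

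Egln1 shows how much a single array weighs here. Its control values were 10.76, 10.18 and 9.81, and its miR-128 values of 10.45, 10.19 and 10.27 lay inside that range. In the controls replicate 3 was the lowest of the 6 arrays for Hif1a, Egln1, Egln3 and Bnip3. Without miR-Control replicate 3 the median of the 5 genes turned from 0.04 to -0.11, and the difference of Egln1 to -0.16. Leaving out miR-Control replicate 1 instead moved that median to 0.10 and Egln1 to 0.31. The 95% interval of Egln1, -0.43 to 0.54, was the widest of the 5.

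**Figure D3:**
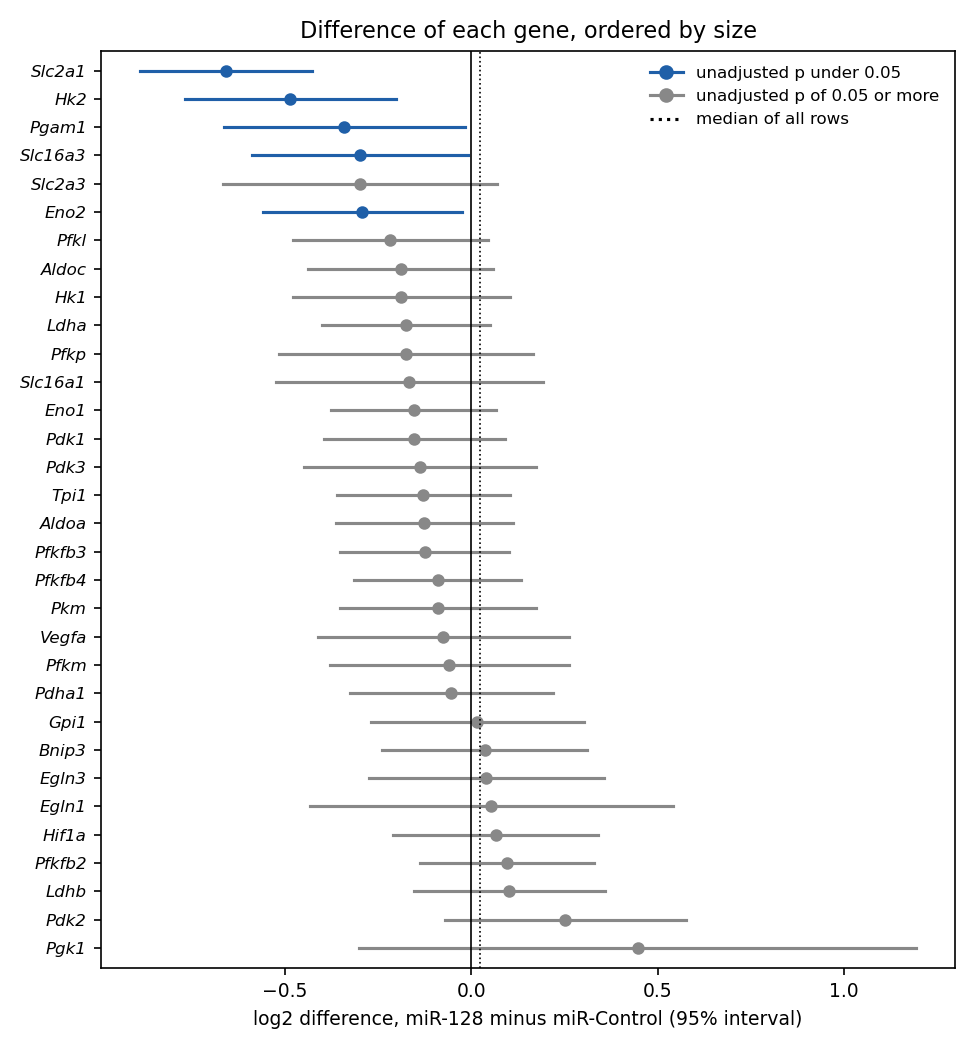
Log2 difference of each of the 32 genes (miR-128 minus miR-Control) with its 95% interval from limma, ordered by size, with the median of all rows as a dotted line. Intervals of 5 genes lie wholly below 0, the widest interval is that of Pgk1, and none lies wholly above 0.

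**Figure D4:**
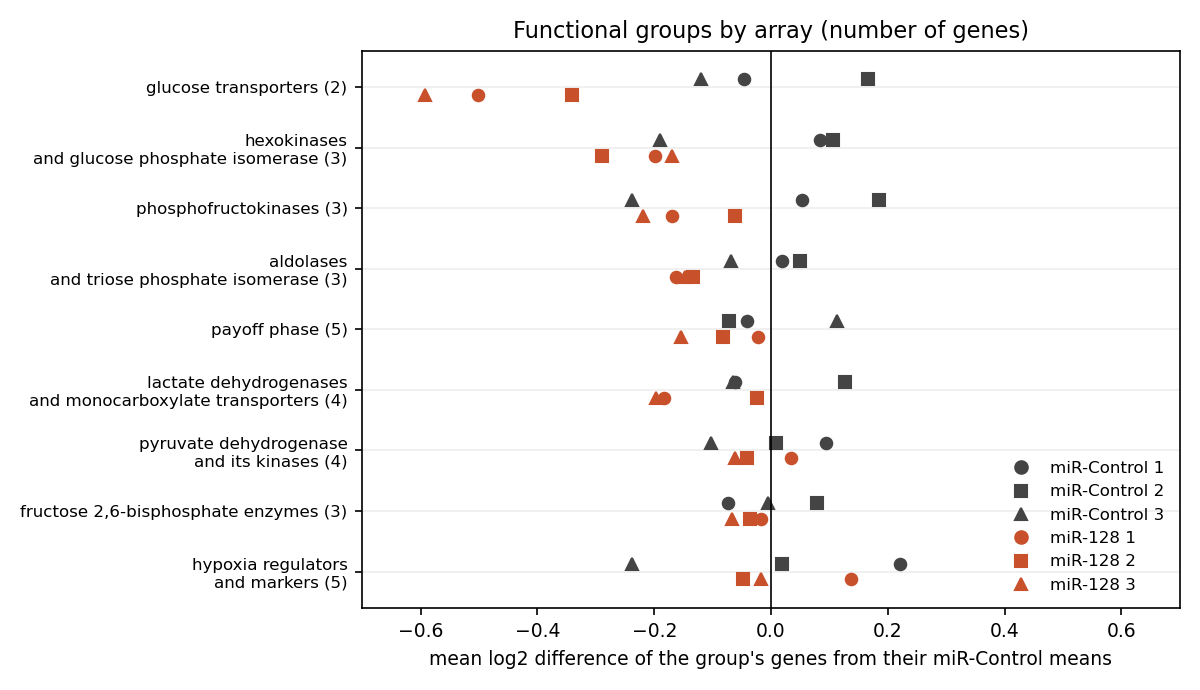
Mean over the genes of each functional group of the log2 difference from the gene's miR-Control mean, one symbol per array (dark grey, controls; orange, miR-128). The groups of arrays are separate for the glucose transporters and for the aldolases with triose phosphate isomerase, while the hypoxia genes run from -0.24 to 0.22 in the controls.

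The functional groups were compared by array as well. The 2 glucose transporters averaged -0.05, 0.17 and -0.12 in the control arrays against -0.50, -0.34 and -0.59 under miR-128. For the aldolases with Tpi1 the averages were 0.02, 0.05 and -0.07 in the control arrays against -0.16, -0.13 and -0.15 under miR-128. In these 2 groups no miR-128 array reached the controls. Of the transporters only Slc2a1 was apart on its own, and of the aldolases with Tpi1 only Aldoc was. No background share was computed for such group means. In the phosphofructokinases the averages were 0.05, 0.18 and -0.24 in the control arrays against -0.17, -0.06 and -0.22 under miR-128, so miR-Control replicate 3 was the lowest of all. From hexokinase to pyruvate kinase 12 of 14 measured enzymes had a lower mean, with a median of -0.16.

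Isozymes of a step were compared within arrays, as the log2 value of the first gene minus that of the second. The question was whether they differed between groups by unequal amounts. Such a subtraction cancels a shift shared by all log2 values of an array, but not a difference in spread between arrays. After quantile normalization Ldha minus Ldhb differed by -0.21 and Pfkfb2 minus Pfkfb4 by 0.25, and 5 pairs still had groups without overlap. Of 16 pairs the groups did not overlap in 5. Of all single rows 4.87% were apart on the lower side and 6.98% on the higher. A single row is an unlike measure, and no share over other pairs of rows was computed. Hk2, Ldha and Pfkfb3, each apart on its own, were among the genes of the 5 pairs. Several pairs share a gene, so these counts are not independent of each other. An exact two-sided permutation test over the 6 arrays cannot go below p = 0.1 with 3 against 3, so no pair could pass, and the 5 pairs that reached 0.1 had a Benjamini-Hochberg value of 0.320 over the 16.

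Ldha minus Ldhb was 3.02, 2.89 and 3.10 in the control arrays against 2.74, 2.79 and 2.64 under miR-128, a difference of -0.28 in the direction of Ldhb. Hk1 minus Hk2 was -0.31, -0.38 and -0.37 in the control arrays against 0.01, -0.23 and 0.05 under miR-128, a difference of 0.30 in the direction of Hk1. In both pairs miR-Control replicate 3 lay with the other controls or on the far side of them from the miR-128 arrays.

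Pfkfb2 minus Pfkfb3 was 0.16, 0.12 and 0.01 in the control arrays against 0.37, 0.32 and 0.26 under miR-128, a difference of 0.22. Pfkfb2 minus Pfkfb4 differed by 0.19 and Pfkm minus Pfkp by 0.12, again without overlap. Slc2a1 minus Slc2a3 differed by -0.36, but its groups overlapped (exact permutation p = 0.2), with miR-128 replicate 3 at 0.18 and miR-Control replicate 2 at 0.03. Eno1 minus Eno2 and Aldoa minus Aldoc differed by 0.14 and 0.06, with overlapping groups.

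**Figure D5:**
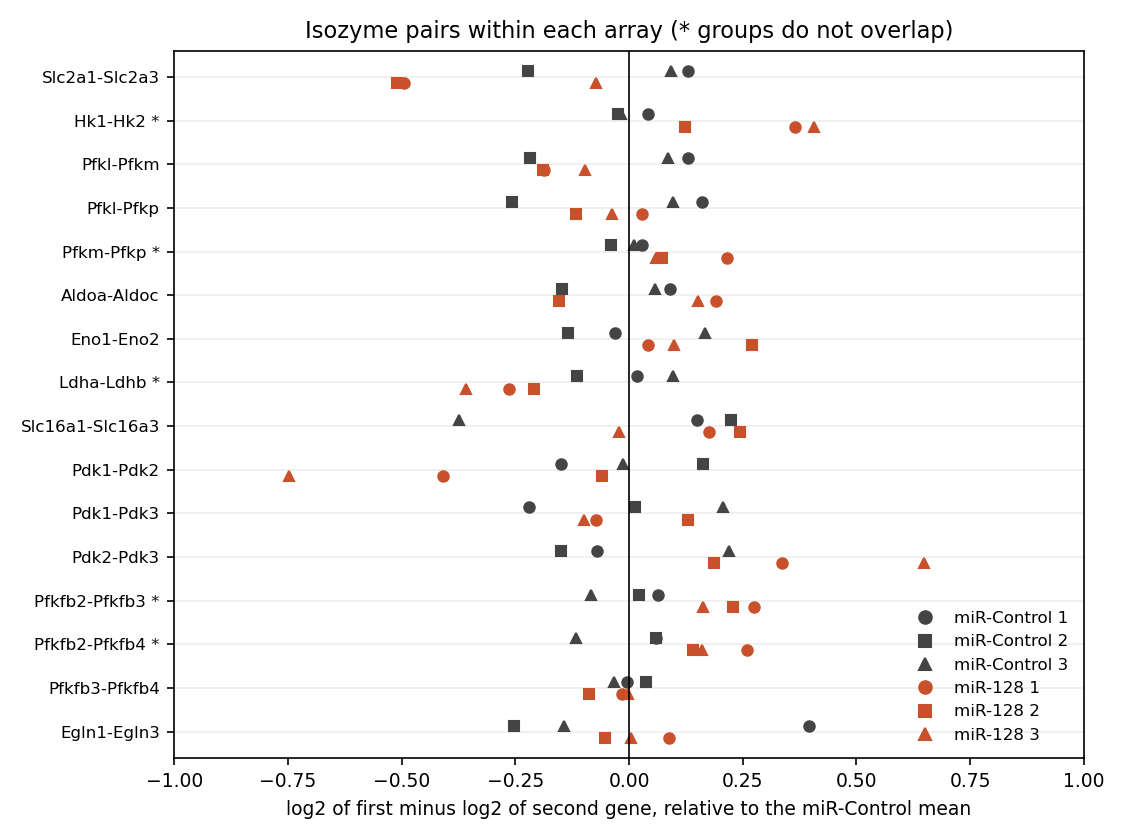
For each isozyme pair, the log2 value of the first gene minus that of the second on the same array, relative to the mean of the 3 controls (dark grey, controls; orange, miR-128). An asterisk marks the 5 pairs whose groups do not overlap, among them Hk1-Hk2 and Ldha-Ldhb.

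Further genes of the pathway were grouped in 4 lists, of which 2 leaned lower and 2 did not. Beside them, 43.2% of all rows were lower, and 3.11% were lower and 4.04% higher at an unadjusted p under 0.05. Other glucose transporters and glycolytic isozymes had 11 of 26 lower (42.3%), with a median of 0.03, and 2 at an unadjusted p under 0.05, both lower (7.69%). These were Slc2a9, a transporter of urate and sugars, at -0.38 (SE 0.11), and Tigar, a bisphosphatase that slows glycolysis, at -0.37 (SE 0.12), with adjusted p of 0.505 and 0.548 in limma. Both had their miR-128 arrays below all controls. For Slc2a9 they were 9.89, 9.86 and 9.82 against 10.07, 10.40 and 10.26.

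The pyruvate dehydrogenase complex and pyruvate carriers had 9 of 18 lower (50%) and a median of 0.00. Pyruvate carboxylase (Pcx), which feeds pyruvate into the citric acid cycle as oxaloacetate, was at 0.30 (adjusted p = 0.665 in limma), the only gene of that list at an unadjusted p under 0.05. Mitochondrial malic enzyme (Me2) was at -0.28 (adjusted p = 0.791). Among the 24 genes of the pentose phosphate and glycogen branches, 16 were lower (66.7%), with a median of -0.08, and 3 were lower (12.5%) and 1 higher (4.17%) at an unadjusted p under 0.05.

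Taldo1, transaldolase of the non-oxidative pentose phosphate branch, had 9.84, 9.47 and 9.54 in the control arrays against 8.47, 8.81 and 9.12 under miR-128. Every miR-128 array lay below the controls, with a wide spread among them. Its difference of -0.82 (SE 0.17, 95% interval -1.22 to -0.42) was larger than that of Slc2a1, and its adjusted p was 0.351 in limma. Pygb, the brain form of glycogen phosphorylase, was higher on each miR-128 array than on any control, at 0.36 (SE 0.11, adjusted p = 0.505).

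The wider low-oxygen list had 15 of 25 lower (60%), with a median of -0.03, and at an unadjusted p under 0.05 it had 5 lower (20%) and 1 higher (4%). Its share on the lower side was above the 15.6% of the 32 genes, a difference that was not tested. Ero1a, an oxidase of protein folding in the endoplasmic reticulum, had 12.55, 12.54 and 12.48 in the control arrays against 12.15, 12.23 and 11.95 under miR-128, a difference of -0.41 (SE 0.11). Ndrg1, a gene strongly induced by low oxygen, had 9.79, 9.84 and 9.38 in the control arrays against 9.07, 9.01 and 9.28 under miR-128, a difference of -0.55 (SE 0.15). In both genes the groups did not overlap, and both had an adjusted p of 0.455 in limma. No gene of the 4 further lists passed over all rows.

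Mean levels of the oligodendrocyte lineage and astrocyte marker lists were higher on the miR-128 arrays. No single marker of them passed (smallest adjusted p = 0.456 in limma for both lists). Of 7 oligodendrocyte lineage markers 6 were higher, where 56.8% of all rows were. At an unadjusted p under 0.05, 3 were higher (42.9%), where 4.04% of all rows were. Array means of the 7 markers were 7.91 to 8.05 in the controls and 8.17 to 8.29 with miR-128. Of 6 astrocyte markers 5 were higher. Array means of all 6 were 7.99 to 8.08 in the controls and 8.17 to 8.22 with miR-128. At an unadjusted p under 0.05, 2 of these markers were higher (33.3%) and 1 lower (16.7%), where 4.04% and 3.11% of all rows were. The sixth, the gap junction gene Gja1, was on the other side at -0.29 (adjusted p = 0.698 in limma), with all miR-128 arrays under the controls; it is named because its values were seen to oppose the list. All 6 microglia markers were higher, but their array means overlapped, at 6.31 to 6.41 in the controls and 6.38 to 6.48 with miR-128. Of 8 neuron markers 5 were higher, with array means of 7.88 to 7.99 and 7.89 to 8.02. The 10 neural stem cell and radial glia markers had 5 higher and 5 lower, 1 of them lower at an unadjusted p under 0.05 (10%). The part of cell composition in the results above was not tested, and in these bulk samples fewer cells of a type and less RNA per cell cannot be told apart.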

How the data were processed

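The authors deposited 1 table of log2 expression values for 32025 transcript rows on 6 exon arrays. RMA and the affy package are named, per the submitters' processing notes, without versions, with probe grouping and design build not given in the sources used here. RMA summarises probes and tends to compress fold changes. Without detection values, signal over background is unknown, and the number of arrays limits precision (median SE of a log2 difference 0.13).

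Row accessions were matched without versions to RefSeq (GRCm38.p6, for names), naming 25343 rows. limma 3.58.1 in R 4.3.3 (lmFit, eBayes; prior of 4.74 degrees of freedom) compared the groups over all rows, unpaired, two-sided, with no filter on low values and Benjamini-Hochberg adjustment at 0.05. Every member is named by symbol, and of each further list the 2 genes of smallest p. Members and lists were chosen with earlier results of these data known. No 2 arrays were identical (Pearson r 0.987 to 0.995 over rows). The fit was tested on simulated data. Alternatives covered scaling, weights, prior, filter, rows per gene, replicate block and left-out arrays.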

Additional observations from a re-analysis of the deposited data

How the results depend on the processing

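Of 14 alternatives 4 change the test and not the differences. In the other 10, 24 of the 32 genes kept their direction throughout, and the remaining 8 had differences of at most 0.08 in size. No row passed over all rows in the main test. When only rows above the median level were tested 4 rows passed, none of them for these 32 genes, and with array weights 24 passed, Slc2a1 among them. With array weights 8 of the 32 genes had an unadjusted p under 0.05, 7 lower and Pgk1 higher, while the shares over all rows were 6.67% lower and 7.62% higher. Leaving out 1 array gave 0 passing rows each time. It gave 2 to 7 of the 32 genes at an unadjusted p under 0.05 in either direction, fewest without miR-128 replicate 3 (over all rows, 4.01% to 12.4%). Of the 16 isozyme pairs 5 to 8 were without overlap. Groups are apart more readily with fewer arrays, and no background share was computed for these fits, so the higher counts do not show a stronger result. With 1 array left out, the number of lower genes ran from 21 to 28 and the median of the 32 genes from -0.17 to -0.09. The share of all rows that were lower ran from 39.0% to 47.6% in these fits. The median of the 32 genes was -0.10 after quantile normalization and -0.16 with arrays centred on their medians.

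The signs that turned were of small differences. Gpi1 went to -0.012 with centred arrays and -0.032 with array weights, under which Bnip3 went to -0.050, Egln1 to -0.19, Egln3 to -0.035, Pdk1 minus Pdk3 to 0.10 and Egln1 minus Egln3 to -0.16. Quantile normalization turned Pfkfb3 minus Pfkfb4 to 0.031. With 1 array left out the ranges that crossed 0 were -0.080 to 0.12 for Gpi1, -0.19 to 0.063 for Pfkm, -0.13 to 0.019 for Pdha1, -0.022 to 0.13 for Hif1a, -0.18 to 0.048 for Vegfa, -0.040 to 0.11 for Bnip3, -0.16 to 0.31 for Egln1 and -0.11 to 0.13 for Egln3. Among pairs they were -0.17 to 0.038 for Pfkl minus Pfkp, -0.010 to 0.17 for Aldoa minus Aldoc, -0.055 to 0.24 for Slc16a1 minus Slc16a3, -0.12 to 0.089 for Pdk1 minus Pdk3 and -0.11 to 0.21 for Egln1 minus Egln3. The cause of these turns was not tested.

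Arrays with the same replicate number did not deviate together throughout (r of -0.003, 0.17 and 0.05 over rows for replicates 1 to 3), and miR-Control replicate 1 correlated best with miR-128 replicate 3 (0.19), so the numbers were not taken as pairs. With the replicate number as a block 0 rows passed and 5 of the 32 genes had an unadjusted p under 0.05, with Slc2a3 in place of Pgam1. All 5 were lower, and in that fit 3.6% of all rows were lower and 4.34% higher at that level.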
